A study of Homo sapiens with 12 samples.

Results

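The genes described here make sterols and fatty acids, or control and move what is made. The list named 31 genes, and a gene counted as measured where the array annotation paired at least 1 probe set with its symbol alone. Under that rule 28 of the 31 were measured, among 19775 genes in all, and each was read from the probe set with its highest mean over the 12 arrays. FDFT1, CYP51A1 and FADS1 had no probe set paired with a single gene and were not analysed here. The measured genes were 7 enzymes of the mevalonate route, 9 enzymes that act on squalene and sterols, 5 controllers of SREBP, the sterol carrier STARD4 and 6 genes of fatty acid synthesis and desaturation.

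Cells build cholesterol from acetyl-CoA by way of mevalonate, farnesyl diphosphate and squalene, and they build fatty acids from the same acetyl-CoA. SREBP proteins, the products of SREBF1 and SREBF2, are transcription factors held in the endoplasmic reticulum membrane. SCAP carries them to the Golgi, where they are cut and released when sterols are low, and INSIG1 and INSIG2 hold SCAP back when sterols are plentiful. In the nucleus SREBP acts beside NF-Y and SP1 at the promoters of many of these genes. Macrophages take up large amounts of lipid and adjust their sterol synthesis to it.

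Expression was read on 12 arrays of the Affymetrix type HG-U133 Plus 2.0 in U937, a human line of histiocytic lymphoma that serves as a model of immature monocytes. All 4 groups carried the same stably integrated TRIPZ Tet-On cassette with a single hairpin design, which makes a hairpin RNA against ZXDC1 and ZXDC2, products of the zinc finger gene ZXDC, when doxycycline is given, and all were kept in puromycin. The vehicle group received 0.1% DMSO and no doxycycline, and vehicle with doxycycline received 0.1% DMSO and 0.5 µg/mL doxycycline. The PMA group received 100 nM PMA, a phorbol ester under which these cells differentiate to macrophage-like cells, and no doxycycline. PMA with doxycycline received both. Doxycycline was given daily for 4 days, and PMA or DMSO was added after its first days and left for 3 days, as the labels state it. Each group had 3 arrays, which the labels call biological replicates, and nothing says whether these came from separate cultures started apart. A p-value here therefore sets a difference against the spread between these samples within groups, whatever that spread represents. Cells with another hairpin, or with doxycycline and no hairpin, were not analysed here, so effects of the hairpin and of doxycycline itself cannot be told apart. The study asked which genes depend on ZXDC1 while PMA drives these cells toward a monocyte or macrophage state.

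The log2 signal of ZXDC was 8.01, 7.63 and 7.69 in vehicle, 7.16, 7.25 and 7.44 in vehicle with doxycycline, 7.96, 7.89 and 7.51 in PMA, and 7.39, 7.43 and 7.02 in PMA with doxycycline. Every array with doxycycline lay below every array without it in the same agent, with a mean difference of -0.50 (exact permutation p = 0.005, two-sided, 400 relabelings within agents). The arrays numbered 1 stood apart in RNA quality: their 3' minus 5' signal of ACTB was 1.99 to 2.72, against 0.71 to 1.64 on the other arrays. Of the myeloid markers, LYZ had group means of 12.05 to 12.60 across vehicle and PMA without doxycycline, while SPI1, at 5.25 and 5.55, lay close to the array medians of 5.16 to 5.22. PTPRC had means of 10.43 and 10.22 and CD4 of 7.11 and 6.98, and CSF1R rose from 5.55 to 7.54. The macrophage integrins ITGAM and ITGAX rose with PMA by 4.81 each (SE 0.22 and 0.17). ALB and APOA2, markers of liver cells, which make much sterol, had means of 3.17 to 3.54 in the same groups, while TTR, the other liver marker, had means of 5.96 and 6.05, above the array medians, and none of these passed the test. Of 11 measured markers of T cells, B cells, fibroblasts and epithelium 0 were called for PMA without doxycycline, and CD3D (0.39) was called with it.

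With PMA and no doxycycline, 9 of the 16 measured enzymes of the mevalonate route and of sterols rose and 2 fell, while 0 of the list's 5 genes of SREBP control and 1 of 6 fatty acid genes rose. Of the 28 measured genes 11 rose and 4 fell (limma, Benjamini-Hochberg adjusted p under 0.05 over all genes), where 31.7% of all genes were called, 12.7% as higher and 18.9% as lower. The median log2 difference was 0.30 over the 28 genes and 0.01 over all genes, and 21 of the 28 were higher, against 51.8% of all genes. Arrays did not overlap between vehicle and PMA for 14 genes that were higher and 5 that were lower, together 67.9% of the 28 against 41.8% of all genes. After cyclic loess normalization the split was 15 rises and 1 fall, and with arrays numbered 2 and 3 only it was 12 and 4. These are bulk samples, in which fewer cells of a type and less RNA per cell cannot be told apart.

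**Figure D1:**
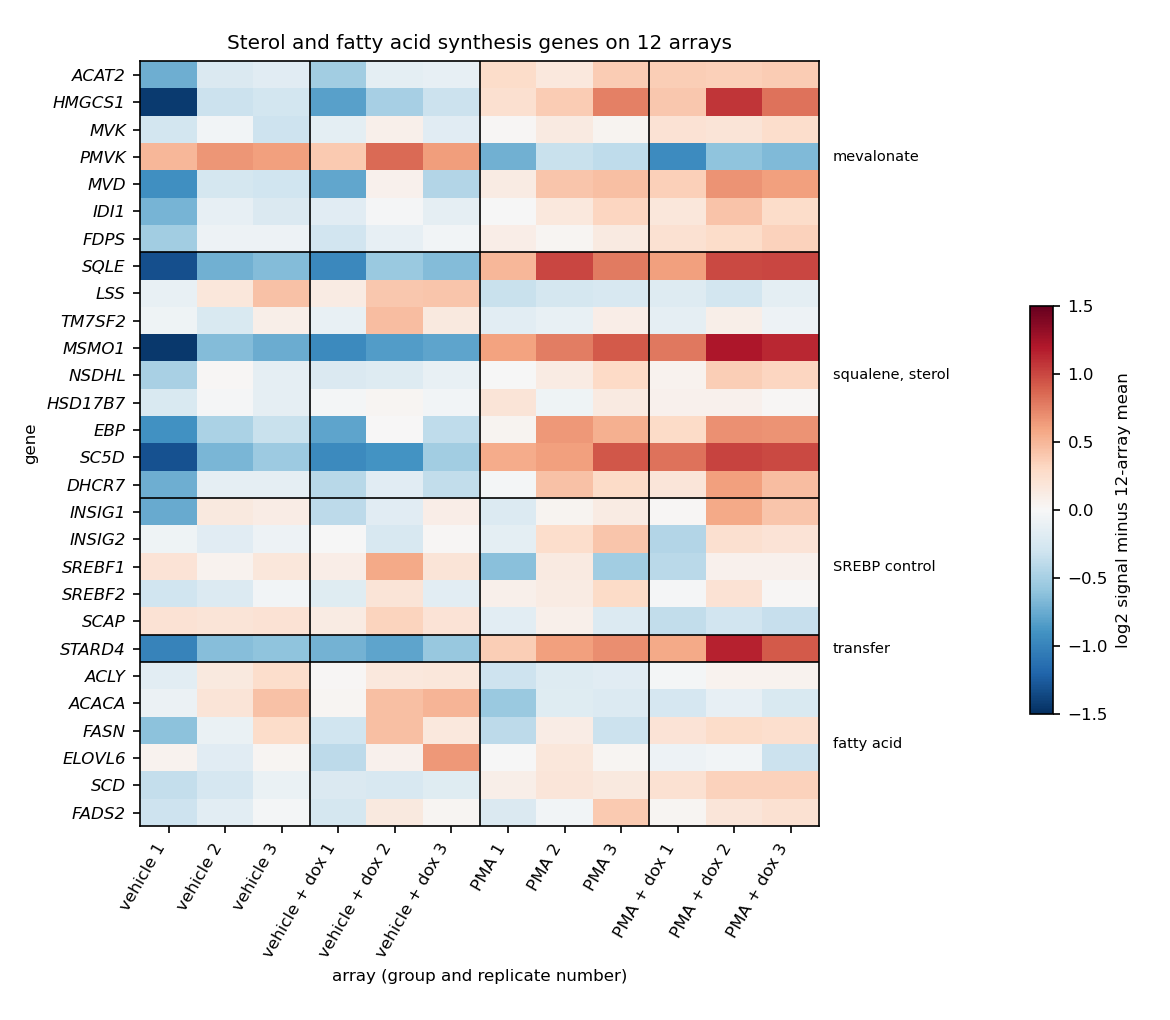
Log2 signal of the 28 measured genes on the 12 arrays, as the difference from each gene's mean over all arrays (colour), with arrays in columns by group and replicate number and genes in rows by role. MSMO1, SQLE, SC5D and STARD4 change from blue to red between vehicle and PMA arrays, PMVK changes the other way, and the vehicle array numbered 1 is the lowest for many enzymes.

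Of the 7 measured enzymes of the mevalonate route 4 rose and 1 fell with PMA, with a median of 0.51. HMGCS1, which makes HMG-CoA, read 9.58, 10.69 and 10.73 in vehicle for replicates 1 to 3, 10.19, 10.52 and 10.69 in vehicle with doxycycline, 11.26, 11.40 and 11.77 in PMA, and 11.42, 12.08 and 11.82 in PMA with doxycycline (values are given in this order throughout). All 6 PMA arrays lay above all 6 vehicle arrays, although the vehicle array numbered 1 was more than 1 log2 unit below the other vehicle arrays of that group. HMGCS1 rose 2.21-fold without doxycycline (1.14, SE 0.27, limma adjusted p = 0.00452). ACAT2, the cytosolic thiolase at the start of the route, rose by 0.64 (SE 0.15), and MVD, which decarboxylates mevalonate diphosphate, rose by 0.82 (SE 0.21). MVK, the mevalonate kinase, differed by 0.28 (adjusted p = 0.0712) and FDPS, which makes farnesyl diphosphate, by 0.31 (adjusted p = 0.0825), and neither was called, although the arrays of vehicle and PMA did not overlap for either. MVK passed in 4 and FDPS in 3 of 21 alternative settings.

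PMVK, which adds the second phosphate to mevalonate, went the other way. It read 9.25, 9.41 and 9.37 in vehicle, 9.15, 9.60 and 9.38 in vehicle with doxycycline, 8.04, 8.42 and 8.38 in PMA, and 7.82, 8.15 and 8.09 in PMA with doxycycline. The lowest of the 6 arrays without PMA lay above the highest of the 6 arrays with it. PMVK fell to 0.478 times its vehicle level without doxycycline (-1.06, SE 0.14, limma adjusted p = 5.18e-05), the largest fall among the 28 genes. The sign was opposite to that of MVD, which acts right after it, and PMVK kept its call in each of the 20 alternative settings run.

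IDI1 converts isopentenyl diphosphate to its allylic isomer, and its direction depended on which probe set was read. The probe set used read 11.09, 11.67 and 11.57 in vehicle, 11.62, 11.77 and 11.66 in vehicle with doxycycline, 11.78, 11.95 and 12.12 in PMA, and 11.96, 12.22 and 12.06 in PMA with doxycycline. Vehicle and PMA arrays did not overlap, and IDI1 rose by 0.51 (SE 0.15, limma adjusted p = 0.0167). The rise was 0.33 (adjusted p = 0.0823) without vehicle replicate 1 and 0.42 (adjusted p = 0.0765) without PMA replicate 3, and the call was lost in both. Its 4 probe sets ran from -1.003 to 0.51, with 2 higher and 2 lower, and the one read for the gene was among the higher ones. The 2 higher ones had means of 11.69 and 11.79 over the 12 arrays. The 2 lower ones were dim, at 5.65 and 6.19, where array medians were 5.16 to 5.22. All but the dimmest have IDs that mark probes that can match other transcripts.

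Among the 9 measured enzymes of squalene and sterols 5 rose and 1 fell, with a median of 0.57. MSMO1, which begins the removal of the C4 methyl groups of the sterol ring, read 10.32, 11.12 and 11.02 in vehicle, 10.82, 10.93 and 10.98 in vehicle with doxycycline, 12.37, 12.54 and 12.69 in PMA, and 12.57, 12.98 and 12.90 in PMA with doxycycline. No array with PMA came within 1 log2 unit of an array without it. MSMO1 rose 3.28-fold without doxycycline (1.71, SE 0.18, limma adjusted p = 6.49e-06), the largest rise of the 28 genes.

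SQLE, the squalene epoxidase that commits squalene to sterols, read 11.05, 11.65 and 11.71 in vehicle, 11.40, 11.82 and 11.72 in vehicle with doxycycline, 12.86, 13.37 and 13.14 in PMA, and 12.98, 13.36 and 13.37 in PMA with doxycycline. The groups with and without PMA did not overlap, and the arrays numbered 1 were the lowest in each. SQLE rose 3.15-fold (1.65, SE 0.19, limma adjusted p = 1.2e-05), and its 4 probe sets rose by 1.65 to 2.19. SC5D, a desaturase of the sterol ring, read 8.87, 9.48 and 9.63 in vehicle, 9.22, 9.28 and 9.65 in vehicle with doxycycline, 10.73, 10.79 and 11.10 in PMA, and 10.98, 11.19 and 11.16 in PMA with doxycycline. Its PMA arrays all lay above its vehicle arrays, a rise of 2.93-fold (1.55, SE 0.18, limma adjusted p = 1.56e-05). The other SC5D probe set differed by 0.18 (adjusted p = 0.473).

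EBP, the sterol isomerase, rose by 0.98 (SE 0.22) and DHCR7, which reduces dehydrocholesterol to cholesterol, by 0.57 (SE 0.18, limma adjusted p = 0.0223). DHCR7 was not called without vehicle replicate 1 (0.37, adjusted p = 0.112), without PMA replicate 2 (0.47, adjusted p = 0.0973) or without PMA replicate 3 (0.54, adjusted p = 0.0686). NSDHL and HSD17B7, which complete the removal of the C4 methyl groups, differed by 0.34 (adjusted p = 0.0798) and 0.22 (adjusted p = 0.144) and did not pass the test. NSDHL passed it in 5 of 21 alternative settings, among them without vehicle replicate 2 (0.45, adjusted p = 0.0386) and as the mean of its 2 probe sets (0.57, adjusted p = 0.0102), of which the other differed by 0.79. HSD17B7 was read from a probe set whose ID marks probes that can match other transcripts.

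LSS, which closes squalene epoxide into lanosterol, was the sterol enzyme that fell. It read 10.28, 10.56 and 10.83 in vehicle, 10.52, 10.80 and 10.81 in vehicle with doxycycline, 10.06, 10.13 and 10.15 in PMA, and 10.20, 10.12 and 10.25 in PMA with doxycycline. The PMA arrays lay close together below the wider spread of the vehicle arrays, without overlap. LSS fell by 0.45 (SE 0.13, limma adjusted p = 0.0203). The call was lost without vehicle replicate 3 (-0.31, adjusted p = 0.113), vehicle replicate 2 (-0.44, adjusted p = 0.057) or PMA replicate 1 (-0.42, adjusted p = 0.0544), after cyclic loess (-0.34, adjusted p = 0.0673) and as the mean of its 3 probe sets (-0.27, adjusted p = 0.201).

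TM7SF2, a sterol reductase, read 5.84, 5.67 and 5.99 in vehicle, 5.78, 6.37 and 6.04 in vehicle with doxycycline, 5.74, 5.79 and 5.99 in PMA, and 5.77, 5.99 and 5.83 in PMA with doxycycline. All 4 groups overlapped, little above the array medians, and PMA arrays differed from vehicle arrays by 0.01 (SE 0.15).

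**Figure D2:**
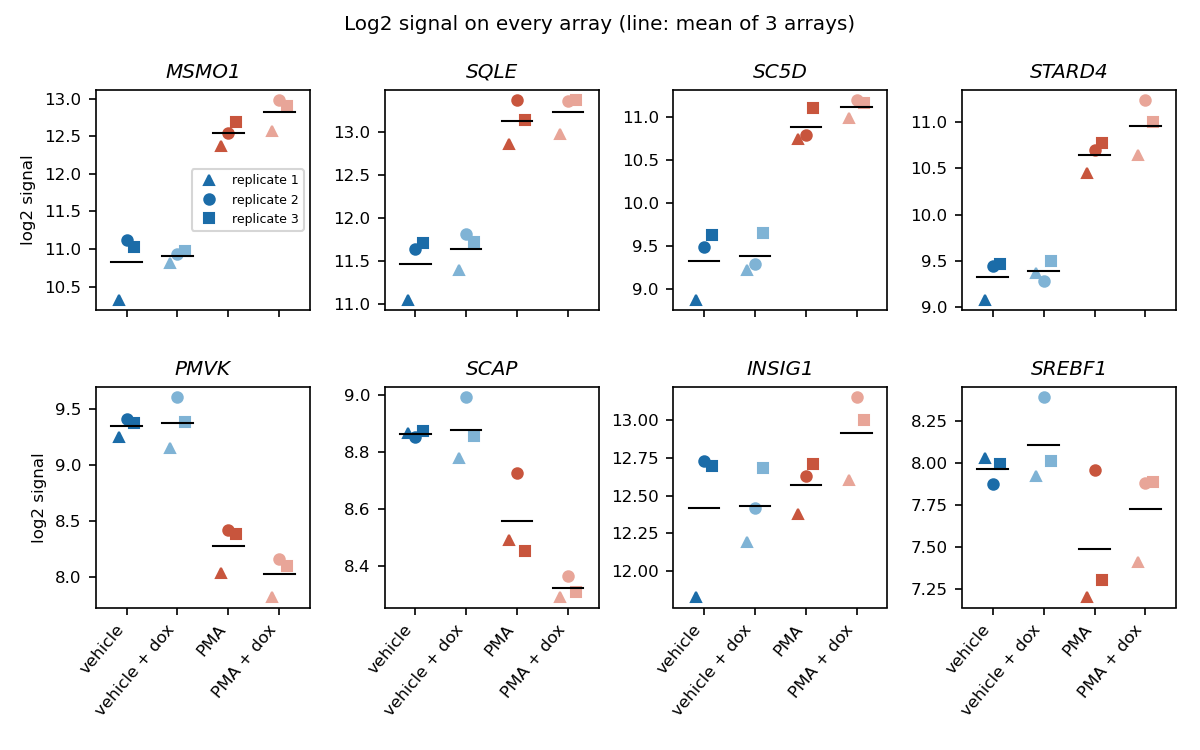
Log2 signal of 8 genes (vertical axis, a separate scale for each gene) on every array, by group, with marker shape for the replicate number and a line at the mean of 3 arrays. MSMO1, SQLE, SC5D and STARD4 are higher on all PMA arrays, PMVK and SCAP are lower on them, and INSIG1 and SREBF1 overlap between vehicle and PMA.

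The carrier that moves cholesterol between membranes rose with the enzymes. STARD4 read 9.08, 9.45 and 9.47 in vehicle, 9.37, 9.29 and 9.51 in vehicle with doxycycline, 10.44, 10.70 and 10.77 in PMA, and 10.64, 11.23 and 10.99 in PMA with doxycycline. PMA arrays stood clear of vehicle arrays with and without doxycycline. STARD4 rose 2.47-fold (1.30, SE 0.16, limma adjusted p = 1.87e-05).

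Of the 5 controllers of SREBP on the list 0 rose and 1 fell, against 12.7% and 18.9% of all genes, with a median of 0.15. Other genes of SREBP control are described further on. SREBF2, whose product acts mainly on sterol genes, read 7.61, 7.71 and 7.87 in vehicle, 7.74, 8.11 and 7.75 in vehicle with doxycycline, 7.99, 8.04 and 8.20 in PMA, and 7.89, 8.13 and 7.93 in PMA with doxycycline. Without doxycycline the PMA arrays were all above the vehicle arrays, and with doxycycline they overlapped. Its difference of 0.34 without doxycycline (SE 0.13, limma adjusted p = 0.0564) missed the threshold narrowly. It passed in 7 of 21 alternative settings, among them without vehicle replicate 3 (0.41, adjusted p = 0.0498), without vehicle with doxycycline replicate 2 (adjusted p = 0.0342), with probe sets averaged (0.31, adjusted p = 0.0283), after quantile normalization (0.40, adjusted p = 0.0213) and after cyclic loess (0.45, adjusted p = 0.0118).

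SREBF1, whose product acts mainly on fatty acid genes, read 8.03, 7.88 and 7.996 in vehicle, 7.93, 8.39 and 8.01 in vehicle with doxycycline, 7.20, 7.96 and 7.30 in PMA, and 7.42, 7.88 and 7.89 in PMA with doxycycline. The PMA arrays numbered 1 and 3 were low, while the array numbered 2 lay within the vehicle range. The difference was -0.48 (SE 0.19, limma adjusted p = 0.0801), and -0.71 (adjusted p = 0.0066) without PMA replicate 2. SREBF1 and SREBF2 thus had differences of opposite sign, and neither was called in the main fit. Among 21 alternative settings without doxycycline, SREBF1 was called as lower in 2 and SREBF2 as higher in 7.

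SCAP, the escort of SREBP, read 8.87, 8.85 and 8.87 in vehicle, 8.78, 8.99 and 8.86 in vehicle with doxycycline, 8.49, 8.73 and 8.45 in PMA, and 8.29, 8.36 and 8.31 in PMA with doxycycline. The vehicle arrays agreed closely, and all PMA arrays were lower. SCAP fell by 0.31 (SE 0.10, limma adjusted p = 0.037). Without doxycycline that call was fragile and was lost in 10 of 21 alternative settings. These included cyclic loess (-0.20, adjusted p = 0.198), quantile normalization (-0.24, adjusted p = 0.113) and arrays numbered 2 and 3 only (-0.27, adjusted p = 0.123). It was also lost with only the compared groups fitted (adjusted p = 0.0788) and with another variance model (trend and robust eBayes, adjusted p = 0.0521). The same held without any 1 of vehicle replicate 1, 2 or 3, PMA replicate 1 or PMA replicate 3, with adjusted p for SCAP up to 0.131 in those fits.

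INSIG1, itself a target of SREBP that holds SCAP back, read 11.83, 12.73 and 12.70 in vehicle, 12.19, 12.42 and 12.68 in vehicle with doxycycline, 12.38, 12.63 and 12.71 in PMA, and 12.60, 13.15 and 12.999 in PMA with doxycycline. The vehicle array numbered 1 was the lowest of the 12, and the other vehicle arrays lay beside the highest PMA array. INSIG1 differed by 0.15 (SE 0.22, limma adjusted p = 0.686), and by -0.14 without vehicle replicate 1. INSIG2, its relative, read 8.97, 8.87 and 8.96 in vehicle, 9.03, 8.79 and 9.05 in vehicle with doxycycline, 8.89, 9.30 and 9.46 in PMA, and 8.59, 9.27 and 9.24 in PMA with doxycycline. Groups overlapped, the PMA arrays numbered 1 being low, and the difference was 0.28 (SE 0.18, adjusted p = 0.288), or 0.46 (adjusted p = 0.0136) with arrays numbered 2 and 3 only.

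Fatty acid genes were called about as often as genes in general. Of 6 measured, 1 rose and 1 fell with PMA, where 31.7% of all genes were called (12.7% higher and 18.9% lower). Their median was 0.02. SCD, which makes oleate from stearate, rose by 0.38 (SE 0.10, limma adjusted p = 0.00836), and its 4 probe sets rose by 0.38 to 1.00, the one read for the gene by the least. ACACA, the carboxylase that makes malonyl-CoA, read 8.59, 8.87 and 9.12 in vehicle, 8.71, 9.13 and 9.19 in vehicle with doxycycline, 8.12, 8.50 and 8.48 in PMA, and 8.43, 8.55 and 8.45 in PMA with doxycycline. The 6 PMA arrays all lay below the 6 vehicle arrays. ACACA fell by 0.49 (SE 0.16, limma adjusted p = 0.0299). Its call was lost without vehicle replicate 3 (-0.36, adjusted p = 0.147), PMA replicate 1 (-0.37, adjusted p = 0.118) or vehicle replicate 2 (-0.49, adjusted p = 0.0781), and after cyclic loess (-0.38, adjusted p = 0.0837).

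ACLY, which makes cytosolic acetyl-CoA from citrate, read 11.77, 12.07 and 12.19 in vehicle, 11.94, 12.08 and 12.09 in vehicle with doxycycline, 11.61, 11.73 and 11.75 in PMA, and 11.90, 11.97 and 11.98 in PMA with doxycycline. Without doxycycline the PMA arrays lay just below the vehicle arrays, and with it they overlapped. Its difference was -0.31 (SE 0.12, limma adjusted p = 0.0602), and -0.43 (adjusted p = 0.0103) without vehicle replicate 1, and it was called as lower in 6 of 20 alternative settings, but 2 of its 3 probe sets were higher with PMA. FASN, the fatty acid synthase, differed by -0.06 (SE 0.22), a value whose sign turned after quantile or cyclic loess normalization. FADS2, a desaturase of polyunsaturated fatty acids, differed by 0.21 (SE 0.16), and ELOVL6, an elongase with a mean under 5 in every group, by 0.10 (SE 0.20). None of these passed the test.

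Because several enzymes moved together, the 250 bases before each gene's start were searched, on both strands, for the letters of motifs known from SREBP target promoters. The set of RefSeq starts used here (GRCh38.p14) gave this stretch for 27 of the 31 genes and had no entry for ACAT2, FASN, SQLE or FDFT1. A gene with several starts counted if any of them held the motif. The NF-Y box CCAAT was present in 19 of 27 (70.4%), against 37.0% of all 27305 genes with an entry and 39.7% of the 15384 of them that the arrays measured. It was there in 9 of the 9 genes that rose and had an entry, in 2 of the 4 that fell (LSS and ACACA) and in 8 of the 12 that were not called. CYP51A1 and FADS1 had an entry but were not measured, so they are outside this split. The SP1 box GGGCGG was present in 26 (96.3%, against 46.2% of all genes and 62.3% of those measured). By the same split it was in 9 of the 9 that rose, 4 of the 4 that fell and 11 of the 12 not called. The E-box CACGTG was present in 3 (11.1%, against 7.73% and 9.69%, and so near its background) and the SREBP site TCACNCCAC in 1 (3.7%, against 1.09% and 1.14%). A match describes these letters only, and the absence of one says nothing of the factor. The sequences below show the gene with the largest rise, the carrier that rose with it, the gene with the largest fall and the gene that held the SREBP site. Capitals mark CCAAT on either strand and, in SREBF2, also the site TCACNCCAC, and all run 5' to 3' on the gene's own strand.
MSMO1: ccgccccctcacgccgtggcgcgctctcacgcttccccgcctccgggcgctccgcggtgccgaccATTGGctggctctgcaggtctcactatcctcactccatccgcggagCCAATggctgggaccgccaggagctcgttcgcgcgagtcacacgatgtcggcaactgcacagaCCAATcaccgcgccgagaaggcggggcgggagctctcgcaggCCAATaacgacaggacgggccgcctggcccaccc
STARD4: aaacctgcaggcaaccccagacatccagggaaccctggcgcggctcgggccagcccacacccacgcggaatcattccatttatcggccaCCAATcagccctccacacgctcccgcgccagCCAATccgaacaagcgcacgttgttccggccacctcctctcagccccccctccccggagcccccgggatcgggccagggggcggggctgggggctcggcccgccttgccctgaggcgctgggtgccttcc
PMVK: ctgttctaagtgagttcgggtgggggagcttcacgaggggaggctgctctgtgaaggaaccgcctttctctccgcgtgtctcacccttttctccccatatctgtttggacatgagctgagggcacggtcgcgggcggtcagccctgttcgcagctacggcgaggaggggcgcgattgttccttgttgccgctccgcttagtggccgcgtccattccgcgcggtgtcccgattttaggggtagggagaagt
SREBF2: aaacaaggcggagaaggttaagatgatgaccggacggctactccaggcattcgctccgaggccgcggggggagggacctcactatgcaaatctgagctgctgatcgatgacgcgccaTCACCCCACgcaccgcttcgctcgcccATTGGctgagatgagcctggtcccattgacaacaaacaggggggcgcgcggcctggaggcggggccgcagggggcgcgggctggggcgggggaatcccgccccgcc
The MSMO1 stretch lies at chr4:165327419-165327668 (plus strand) and holds 4 boxes. The STARD4 stretch at chr5:111512536-111512785 (minus strand) holds 2, and the PMVK stretch at chr1:154936720-154936969 (minus strand) holds 0. The PMVK start in this set lies inside the span that RefSeq gives the gene, 5939 bases from its outer edge. The bases before that edge were therefore not searched. The same holds for 6 of the 27 genes, PMVK, ACLY, CYP51A1, ELOVL6, MVK and SCAP. In SREBF2, at chr22:41832855-41833104 (plus strand), the SREBP site begins 133 bases before the start and is followed by 1 box. No motif searched overlapped another in these 4 stretches.

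PMA with doxycycline, while the hairpin was induced, again had most of the sterol enzymes higher. Of the 28 genes 13 rose and 4 fell (limma adjusted p under 0.05), where 32.5% of all genes were called, 13.0% as higher and 19.5% as lower. The median difference was 0.35, against -0.01 over all genes, and 20 of the 28 were higher, against 48.2%. Arrays did not overlap for 14 genes that were higher and 5 that were lower, against 42.5% of all genes. With arrays numbered 2 and 3 only, 14 rose and 5 fell. These groups share no array with vehicle and PMA without doxycycline. Same-numbered arrays with and without doxycycline were nonetheless correlated within agents, at 0.25 to 0.64, and the spread was estimated over all 12 arrays. The comparisons are therefore not independent. Over the 28 genes the log2 differences with and without doxycycline had a Pearson r of 0.976, beside 0.965 over all genes, a description over genes that share the same arrays.

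Of the mevalonate and sterol enzymes 11 of 16 rose and 2 fell, with a median of 0.53. MSMO1 rose by 1.90 (3.75-fold, SE 0.18, limma adjusted p = 2.17e-06), SC5D by 1.73 (3.31-fold) and SQLE by 1.59 (3.01-fold). HMGCS1 rose by 1.30, EBP by 0.94, MVD by 0.93, DHCR7 by 0.75 and ACAT2 by 0.63. PMVK fell by 1.35, to 0.391 times its level in vehicle with doxycycline, and LSS fell by 0.52 (adjusted p = 0.00813). The fall of LSS was -0.13 (adjusted p = 0.573) as the mean of its probe sets, and not called. HSD17B7 differed by 0.07 and TM7SF2 by -0.20, and neither was called.

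MVK, FDPS and NSDHL were called with doxycycline and not without it, and IDI1 without it and not with it. MVK rose by 0.31 (limma adjusted p = 0.046), close to the threshold, and kept its call in 6 of 21 alternative settings. FDPS rose by 0.43 (adjusted p = 0.0171), and was not called without vehicle with doxycycline replicate 1 (adjusted p = 0.0709) or PMA with doxycycline replicate 3 (adjusted p = 0.0609). NSDHL rose by 0.42 (adjusted p = 0.0321), and was not called when 1 of 5 arrays was left out, vehicle with doxycycline replicate 1, 2 or 3 or PMA with doxycycline replicate 2 or 3, with adjusted p up to 0.117. IDI1 differed by 0.40 (adjusted p = 0.054), just above the threshold, and was called as higher in 11 of 21 alternative settings, with adjusted p for IDI1 of 0.015 to 0.0492 in those. The test of the difference between both PMA comparisons, given further on, called none of them.

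STARD4 rose by 1.57 (2.96-fold, SE 0.16, limma adjusted p = 3.11e-06) and SCD by 0.52 (SE 0.10). SCAP fell by 0.55 (SE 0.10, adjusted p = 0.000769), and all 3 of its arrays lay below those of the other 3 groups. SCAP kept this call in all 21 alternative settings, unlike the call without doxycycline. ACACA fell by 0.53 (adjusted p = 0.0199), a call lost without PMA with doxycycline replicate 1 (adjusted p = 0.051) or 3 (adjusted p = 0.0566), without vehicle with doxycycline replicate 2 (adjusted p = 0.0774) or 3 (adjusted p = 0.0913), and after cyclic loess (-0.40, adjusted p = 0.0647). The other genes were not called. INSIG1 differed by 0.48 (adjusted p = 0.125, and 0.0355 without vehicle replicate 1), SREBF1 by -0.38, SREBF2 by 0.12, INSIG2 by 0.08 and ACLY by -0.09. FASN differed by 0.14, FADS2 by 0.17 and ELOVL6 by -0.25 (adjusted p = 0.404, and 0.0352 without vehicle with doxycycline replicate 1).

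**Figure D3:**
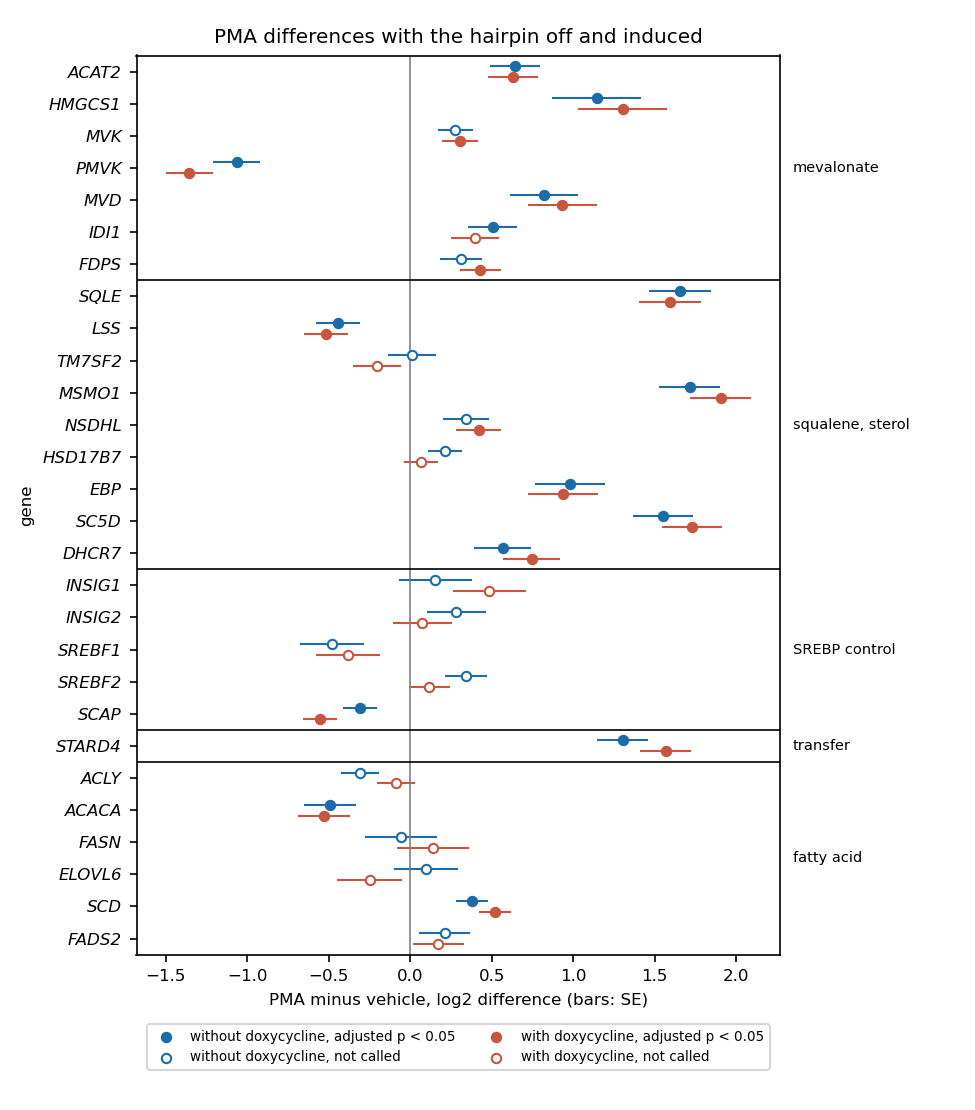
Difference between PMA and vehicle (horizontal axis, log2, with standard errors as bars) for the 28 genes by role, without doxycycline in blue and with it in red, filled where the adjusted p was under 0.05. Of the genes 14 are filled in both colours, 10 to the right of 0 and 4 to the left.

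Across both comparisons 14 of the 28 genes were called, all in the same direction. The 10 that rose in both were ACAT2, HMGCS1, MVD, SQLE, MSMO1, EBP, SC5D, DHCR7, STARD4 and SCD, and the 4 that fell were PMVK, LSS, SCAP and ACACA. TM7SF2, FASN and ELOVL6 had opposite signs in both comparisons and were called in neither. In every alternative setting in which they were measured, ACAT2, HMGCS1, PMVK, MVD, SQLE, MSMO1, EBP, STARD4 and SCD kept their call without doxycycline. With doxycycline the same 9 genes and SC5D, DHCR7 and SCAP did so.

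The 16 mevalonate and sterol enzymes were also averaged on each array, as the mean difference from each gene's 12-array mean. This average was -0.67, -0.19 and -0.18 in vehicle, -0.42, -0.10 and -0.18 in vehicle with doxycycline, 0.09, 0.26 and 0.34 in PMA, and 0.21, 0.45 and 0.40 in PMA with doxycycline. Every PMA array lay above every vehicle array, and within each group the array numbered 1 was the lowest. For the 6 fatty acid genes the same average was -0.25, -0.06 and 0.15 in vehicle and -0.23, 0.01 and -0.02 in PMA, which overlapped. The arrays numbered 1 were also those with the highest 3' minus 5' signal of ACTB, and the part of RNA quality in their low values was not tested.

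Most of the genes have more than 1 probe set, and these mostly agreed in direction and less in size. Of 61 probe sets in all, 10 genes had 1 and 18 had several. For 15 of the 18 all probe sets went one way with PMA without doxycycline, and for 12 of the 18 with it. HMGCS1 probe sets rose by 1.14 and 1.87, those of EBP by 0.47 to 1.09 and those of DHCR7 by 0.57 and 0.83. ACACA probe sets differed by -0.60 and -0.49, and those of LSS by -0.45 to -0.16. The exceptions without doxycycline were IDI1 (-1.003 to 0.51), ACLY (-0.31 to 0.23) and FADS2 (-0.02 to 0.21). Levels of different probe sets cannot be set against each other.

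**Figure D4:**
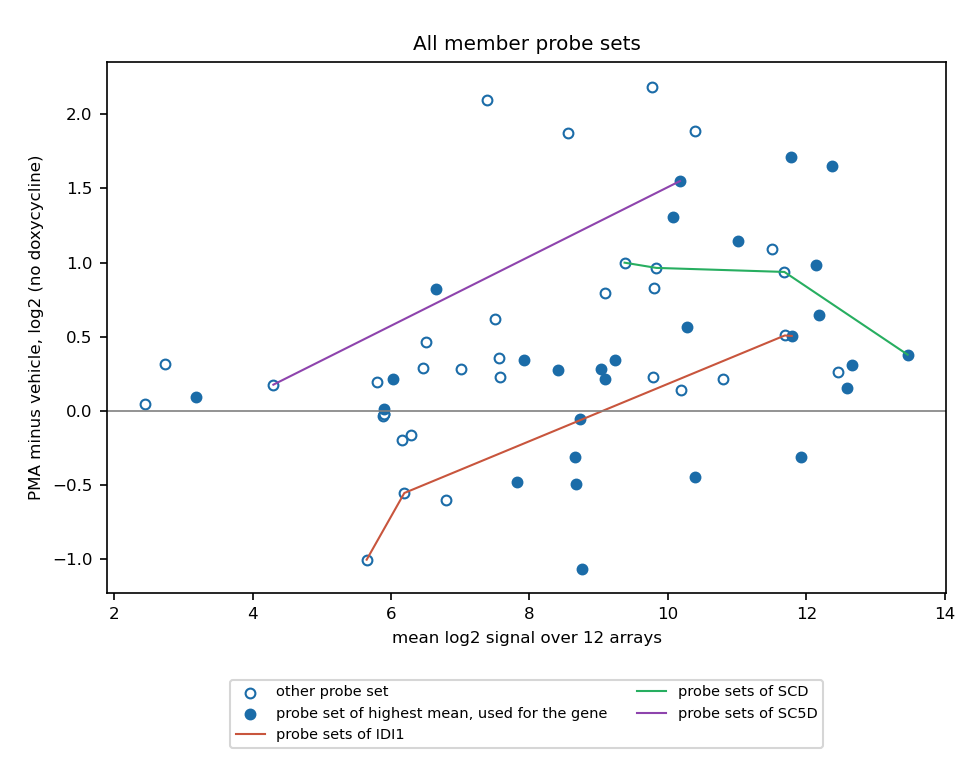
Difference between PMA and vehicle without doxycycline (vertical axis, log2) for each of the 61 probe sets of the 28 genes against its mean log2 signal over 12 arrays (horizontal axis), filled where the probe set was read for its gene, with lines joining the probe sets of 3 genes. The IDI1 line crosses from -1.003 to 0.51, the SC5D line from 0.18 to 1.55, and the SCD line stays above 0.

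Counts for other genes of these pathways are set beside all genes. Without doxycycline 12.7% of all genes rose and 18.9% fell with PMA, and with it 13.0% rose and 19.5% fell. Of 9 measured among 11 other genes of isoprenoid and sterol synthesis, 2 rose and 3 fell with PMA without doxycycline, with a median of -0.05. ERG28, a scaffold for the enzymes that demethylate sterols, rose by 0.67 (SE 0.13) and DHDDS, which makes dolichol chains, by 0.66 (SE 0.16). ACAT1, the mitochondrial thiolase, fell by 0.79 (SE 0.10), while its cytosolic relative ACAT2 rose by 0.64. LBR, a sterol reductase of the nuclear envelope with the same reaction as TM7SF2, fell by 0.37 (SE 0.12). With doxycycline 3 rose and 2 fell.

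Of 8 measured among 11 other genes of SREBP control 5 rose and 2 fell, against 12.7% and 18.9% of all genes, with a median of 0.38. SPRING1, which is needed for the cutting of SREBP, rose by 0.96 (SE 0.11) and NR1H3, the sterol sensor LXR alpha, by 0.89 (SE 0.23). ERLIN1 and ERLIN2, which help to restrain SREBP in the endoplasmic reticulum, fell by 1.34 (SE 0.10) and 0.54 (SE 0.11). MBTPS1, the protease that makes the first cut, differed by -0.11 and was not called, while MBTPS2, the protease of the second cut, rose by 0.39 (SE 0.13, limma adjusted p = 0.0352). With doxycycline 4 rose and 2 fell, and MBTPS2 differed by 0.20 and was not called.

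Of 18 measured among 22 other genes of fatty acid supply and elongation 5 rose and 3 fell, with a median of -0.05. Of all genes 12.7% rose and 18.9% fell, so the count of falls was near its background. FADS3, a desaturase, rose by 1.65 (SE 0.18) and ACSL4, which activates arachidonate, by 1.46 (SE 0.22). ELOVL3, an elongase, fell by 1.86 (SE 0.30) and SCD5, a relative of SCD, by 1.18 (SE 0.10). With doxycycline 5 rose and 6 fell.

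Doxycycline in vehicle-treated cells moved none of the genes past the test. Of the 28 genes 0 were called, where 0.0% of all genes were, and 0 had an unadjusted p under 0.05, against 510 of all 19775 genes. All 28 were nonetheless higher by mean, by 0.01 to 0.25 with a median of 0.11, where 55.3% of all genes were higher with a median of 0.02. None of the 28 had groups that did not overlap, against 8.56% of all genes (5.08% higher and 3.47% lower). By replicate number 23, 19 and 16 of the 28 were higher, and with arrays numbered 2 and 3 only 18 were. The smallest p belonged to IDI1 (0.24, SE 0.15, limma adjusted p = 0.9998) and TM7SF2 (0.23, SE 0.15, adjusted p = 0.9998). For IDI1 the arrays numbered 1 differed by 0.53 and the others by 0.10 and 0.08, and for TM7SF2 the arrays numbered 2 differed by 0.70 and the others by -0.05 and 0.06. The vehicle array numbered 1 without doxycycline was the lowest of the 12 for the mean of the mevalonate and sterol enzymes, at -0.67 from their 12-array mean, and its partner with doxycycline was at -0.42. Its ACTB 3' minus 5' signal was 1.99, and that of its partner 2.40.

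Doxycycline in PMA-treated cells also gave 0 calls among the 28 genes, where 1 gene of 19775 was called (0.00506%). Of the 28 genes 22 were higher, with a median of 0.14 and a range of -0.26 to 0.45, and 48.4% of all genes were higher, with a median of -0.01. By replicate number 22, 21 and 18 were higher, and with arrays numbered 2 and 3 only 23 were. The arrays did not overlap for 5 genes that were higher, MVK, FDPS, ACLY, FASN and SCD, and for 2 that were lower, SCAP and ELOVL6, together 25.0% of the 28 against 10.7% of all genes (4.83% higher and 5.9% lower).

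SCAP had the smallest p, at -0.24 (SE 0.10, limma adjusted p = 0.802), and was lower with doxycycline in 3 of 3 same-numbered pairs. ACLY followed at 0.25 (SE 0.12, limma adjusted p = 0.811), higher in 3 of 3 pairs. FASN had the largest difference, 0.45 (SE 0.22, limma adjusted p = 0.821), with 0.60, 0.16 and 0.58 by pair. STARD4 differed by 0.32 (SE 0.16), INSIG1 by 0.34 (SE 0.22), HMGCS1 by 0.30 (SE 0.27) and MSMO1 by 0.28 (SE 0.18), each higher in 3 of 3 pairs, and PMVK by -0.26 (SE 0.14), lower in 3 of 3. In the fit with a block for each pair of arrays, 6 of the 28 had an unadjusted p under 0.05, against 13.2% of all genes, FASN with the smallest (limma adjusted p = 0.196). None of the 28 was called in that fit, where 27 of all genes were called higher and 26 lower (0.268%). The ACTB 3' minus 5' signal was higher with doxycycline in each PMA pair, at 2.72 against 2.39, 1.32 against 1.12 and 1.64 against 1.01, and its part in these differences was not tested.

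**Figure D5:**
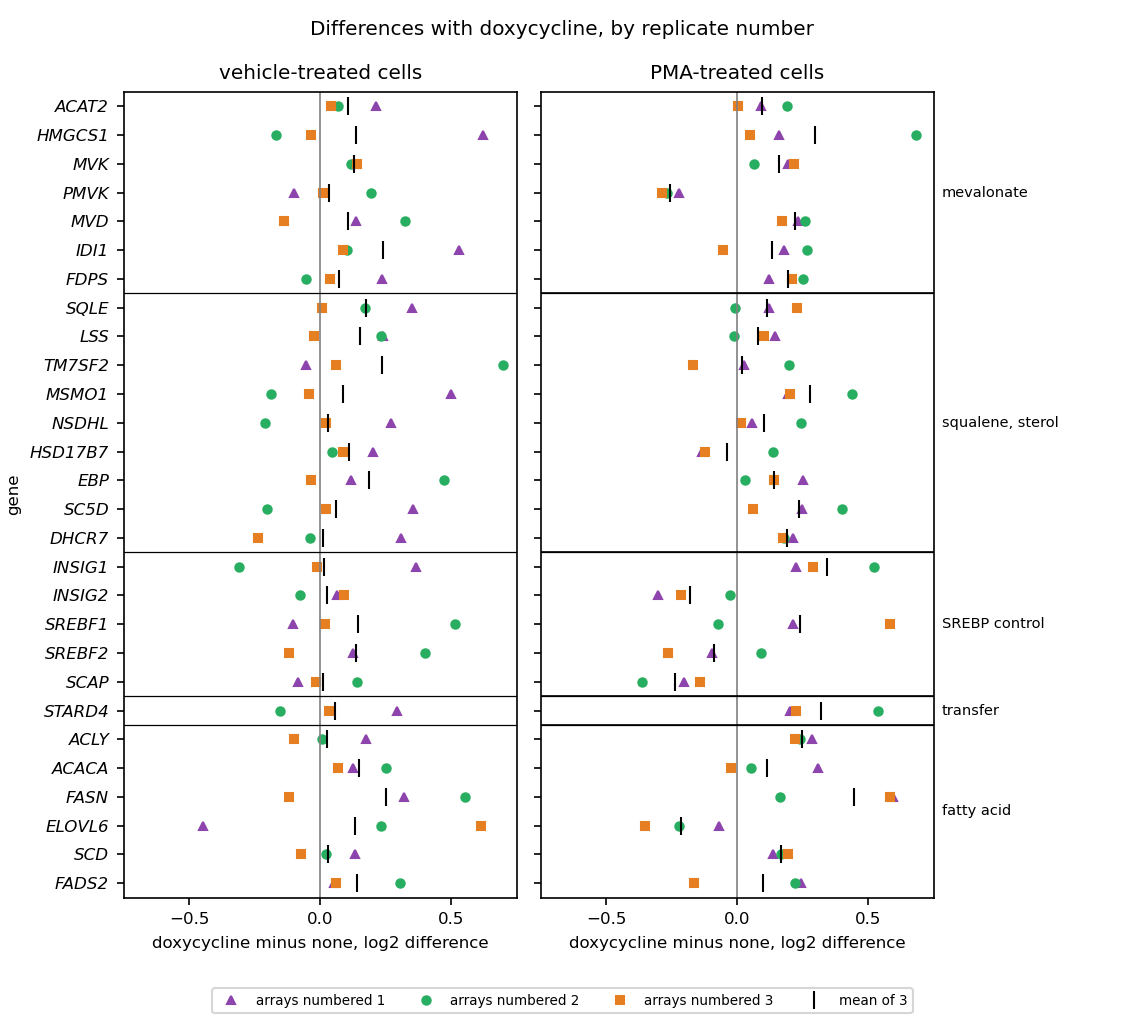
Difference between arrays with and without doxycycline of the same replicate number (horizontal axis, log2) for the 28 genes by role, in vehicle-treated cells on the left and PMA-treated cells on the right, with a bar at the mean of 3. In vehicle the arrays numbered 1 lie furthest right for many enzymes, and in PMA all 3 markers lie to the right of 0 for FASN, ACLY, STARD4 and INSIG1 and to the left for SCAP, PMVK and ELOVL6.

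Averaged over both agents 24 of the 28 genes were higher with doxycycline, with a median of 0.13, and 0 were called, as were 0.0% of all genes. FASN had the smallest p, at 0.35 (SE 0.16, limma adjusted p = 0.808). With a block for each pair of arrays 5 of the 28 had an unadjusted p under 0.05 for this average, against 12.3% of all genes, and none was called. The PMA difference itself was tested for change with doxycycline, and 0 of the 28 genes were called, as were 0.0% of all genes (518 genes had an unadjusted p under 0.05, none of them among the 28). With arrays numbered 2 and 3 only, 6 of the 28 had an unadjusted p under 0.05 in this test, against 1266 of all genes (6.4%). For doxycycline in PMA 5 of the 28 had, against 1711 (8.65%), and for doxycycline in vehicle 2 had, against 996 (5.04%). None of the 28 was called there. The change was positive for 14 of 28, with a median of 0.01. It was largest for ELOVL6 at -0.35 (SE 0.28) and INSIG1 at 0.33 (SE 0.32), and the smallest p was that of SCAP at -0.25 (SE 0.15, limma adjusted p = 0.9999). For MSMO1 it was 0.19 (SE 0.26), for SQLE -0.06 (SE 0.27), for SC5D 0.18 (SE 0.26), for STARD4 0.26 (SE 0.22) and for PMVK -0.29 (SE 0.20). These comparisons share arrays with those of PMA, since the same PMA arrays without doxycycline stand in both.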

How the data were processed

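The deposited series table holds a log2 value for each probe set on 12 arrays. The submitters' processing notes name RMA, and its version is not given in the sources used here. RNA (100 ng) was labelled with a 3' kit, per the labels' protocols. They were used as deposited, with medians of 5.16 to 5.22 per array.

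The table has 54675 probe sets. Controls (62) and those paired with several gene symbols (1801) were left out, and 41091 with a single symbol, updated through Entrez numbers, were kept. The probe set of highest mean stood for each of 19775 genes. Group means over all 12 arrays were fitted in limma 3.58.1 (lmFit, eBayes; R 4.3.3), on 8 residual degrees of freedom (prior 5.6), adjusted over all genes and called under 0.05, two-sided, after tests on simulated data. The number of arrays limits the precision.

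Pairing was checked through the correlation of deviations from group means: vehicle arrays with and without doxycycline of the same number gave 0.57, 0.25 and 0.31, and PMA arrays 0.64, 0.29 and 0.32, so arrays were taken as paired within agents only (vehicle and PMA arrays of the same number gave 0.16, -0.011 and 0.15), and a block for each pair was an alternative. Other alternatives were a replicate block over all groups, other probe set summaries, a limit of 5 (log2) on dim genes, quantile and cyclic loess normalization, other variance models, and fewer arrays.

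Every measured member is named. Values on each array are given for the 5 largest rises and up to 5 largest falls among genes called without doxycycline whose groups did not overlap, for SREBF1, SREBF2, SCAP, INSIG1 and INSIG2, and for the 2 smallest p for doxycycline in each agent. Of other pathway lists, called genes with the 2 largest rises and falls are named. MBTPS1 and MBTPS2 were added after their values were seen. The members and lists were chosen with earlier results of these data known. Promoter letters come from RefSeq (GRCh38.p14).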

Additional observations from a re-analysis of the deposited data

How the results depend on the processing

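No alternative gave a member called for doxycycline in either agent, averaged over both, or in the test of change with doxycycline (0 throughout, also with 1 array left out and with a replicate block by pairs within agent). The count for PMA without doxycycline, 15 of 28, was 12 to 16 with 1 array left out, 21 with a replicate block over all groups (15 higher, 6 lower), and 9 of 19 measured without probe sets whose ID ends in _x_at or _s_at, where fewer genes could be counted (5 higher, 4 lower). The count with doxycycline, 17, was 13 to 18 with 1 array left out, 19 with the replicate block and 12 of 19 without those probe sets. The replicate block over all groups added MVK, FDPS, NSDHL and SREBF2 as higher and SREBF1 and ACLY as lower without doxycycline (adjusted p = 0.0251 to 0.0442), and IDI1 and INSIG1 as higher with it (adjusted p = 0.015 and 0.0119). Over all genes, arrays of the same number correlated weakly across agents, at -0.011 to 0.20. For the mean of the mevalonate and sterol enzymes, though, the array numbered 1 was the lowest in each group. The pairing by block changed no call for doxycycline among the 28 genes. Over all genes it gave 53 calls for doxycycline in PMA, against 1 in the main fit. The fall of ZXDC was -0.39 (exact permutation p = 0.0556) with arrays numbered 2 and 3 only, where fewer samples enter, and -0.38 (exact permutation p = 0.01) over all its probe sets.

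The following differences turned their sign, and the cause was not tested. For PMA without doxycycline, with probe sets averaged IDI1 was -0.14 and ACLY 0.021, and without _x_at and _s_at probe sets IDI1 was -1.003 and FADS2 -0.020. FASN was 0.0092 after quantile normalization and 0.056 after cyclic loess, and with 1 array left out it ran from -0.29 to 0.16. With 1 array left out TM7SF2 ran from -0.068 to 0.090 and INSIG1 from -0.14 (without vehicle replicate 1) to 0.31. INSIG1 was -0.044 with arrays numbered 2 and 3 only. For PMA with doxycycline, with probe sets averaged IDI1 was -0.18, SREBF1 0.0054, ACLY 0.21 and FADS2 -0.012, and without _x_at and _s_at probe sets IDI1 was -0.95 and FADS2 -0.20. ACLY was 0.0098 after cyclic loess. FASN was -0.041 with arrays numbered 2 and 3 only. With 1 array left out FASN ran from -0.060 to 0.31, INSIG2 from -0.043 to 0.30 and ELOVL6 from -0.50 to 0.022. For doxycycline in vehicle IDI1 was -0.13 without _x_at and _s_at probe sets. Of these, the IDI1 values without _x_at and _s_at probe sets passed the threshold for PMA.

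With 3 arrays a group the SE were 0.10 to 0.27 (log2). In the main fit 1 of the 28 genes, SCAP, had an unadjusted p under 0.05 for doxycycline in PMA. With arrays numbered 2 and 3 only 5 had, against 8.65% of all genes. With a block for each pair of arrays 6 had, FASN with the smallest, against 13.2% of all genes. None passed after adjustment over all genes in any of these fits.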
